A study of Mus musculus with 6 samples.

Results

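The 10 genes described here are the Naip genes that lie beside Ocln on mouse chromosome 13, Naip1, Naip2, Naip3, Naip5 and Naip6, and their inflammasome partners Nlrc4, Nlrp3, Pycard, Casp1 and Gsdmd. They are 10 of the 57127 genes listed in whole-epididymis count data, and all 10 were among the 19691 genes abundant enough to be tested. The Naip genes were chosen by their higher counts in these same Ocln-KO libraries, so their values between genotypes are a description and carry no test. The partners were chosen for their function, with earlier results of these data known, and they were tested. The libraries came from the whole epididymis of adult wild-type (WT) mice and of adult Ocln-/- mice (Ocln-KO), which lack occludin, a transmembrane protein of tight junctions. Both genotypes are labelled C57BL/6, and there were 3 libraries of each. Ocln-KO males are sterile, so the mice came from crosses of heterozygotes, and the line was kept by breeding with C57BL/6. From which strain the chromosome around the targeted allele derives is not given in the sources used here. The methods describe RNA taken separately from the mice and also pooled RNA, so n counts libraries, and p-values measure the spread between these libraries.

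Naip proteins are cytosolic sensors of the NLR family. In mice, Naip1 is known to bind the needle protein of bacterial type III secretion systems, Naip2 binds the inner rod protein, and Naip5 and Naip6 bind flagellin. A Naip that has bound its ligand recruits Nlrc4, and the complex activates caspase-1, directly or through the adaptor ASC, the product of Pycard. Nlrp3 is a separate sensor that also acts through ASC. Active caspase-1 cuts the cytokines IL-1 beta and IL-18 and the pore-forming protein gasdermin D, the product of Gsdmd. Most knowledge of this pathway comes from macrophages and intestinal epithelium.

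The Naip genes are recent copies of each other, so reads from one can be assigned to another. In the GENCODE M21 transcripts of GRCm38, the coding sequences of Naip1 and Naip6 shared 91.6% of aligned bases, those of Naip5 and Naip6 97.0%, and those of Naip1 and Naip2 90.8%. Naip3, annotated as a pseudogene, shared 95.2% with Naip1. A stretch of 60 bases shows how close the copies are. It was taken from 2982 candidate stretches as one with the median number of differences from Naip1 summed over the other genes, which is 13. It is exonic, on the minus strand of GRCm38, at chr13:100427304-100427363 in Naip1, chr13:100162043-100162102 in Naip2, chr13:100353930-100353989 in Naip3, chr13:100223375-100223434 in Naip5 and chr13:100300662-100300721 in Naip6. Capitals mark bases that differ from Naip1, of which Naip2 had 4 and Naip3, Naip5 and Naip6 had 3 each.
Naip1: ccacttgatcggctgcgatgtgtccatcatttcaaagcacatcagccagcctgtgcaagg
Naip2: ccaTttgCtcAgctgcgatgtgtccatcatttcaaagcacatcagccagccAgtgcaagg
Naip3: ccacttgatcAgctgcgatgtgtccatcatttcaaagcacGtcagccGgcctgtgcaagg
Naip5: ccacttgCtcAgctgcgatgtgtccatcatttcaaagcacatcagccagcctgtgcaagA
Naip6: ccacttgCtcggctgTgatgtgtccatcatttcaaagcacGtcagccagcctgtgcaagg
Over windows of 150 bases, the length of 1 sequenced read, 95.0% of the windows of Naip1 matched no transcript of another gene. The share was 98.1% for Naip6, 99.5% for Naip2, 91.8% for Naip5 and 83.6% for Naip3. How the counting treated reads that align to several places is not given in the sources used here, so the division of reads among Naip genes is uncertain.

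Promoters were read from RefSeq for GRCm38.p6, from 250 bases before to 50 after the start, and 8 of the 10 genes had an entry. The run CCTTTAAGAGG, capitals below, was taken as the longest shared by the promoters of Naip1, Naip2 and Naip5, 3 genes set before the search. That these 3 share it was thus fixed by the choice, and its rarity is no test. On either strand, 30 of 32851 promoters of this length held it (0.0913%), these 3 among them. The run was not in the promoter of Naip6. Of the 4 Naip promoters 3 are printed, as a gene with the run that was higher in Ocln-KO, a gene with the run that was not, and a gene without the run that was higher. They lie on the minus strand at chr13:100452815-100453114 (Naip1), chr13:100202073-100202372 (Naip2) and chr13:100316567-100316866 (Naip6).
Naip1: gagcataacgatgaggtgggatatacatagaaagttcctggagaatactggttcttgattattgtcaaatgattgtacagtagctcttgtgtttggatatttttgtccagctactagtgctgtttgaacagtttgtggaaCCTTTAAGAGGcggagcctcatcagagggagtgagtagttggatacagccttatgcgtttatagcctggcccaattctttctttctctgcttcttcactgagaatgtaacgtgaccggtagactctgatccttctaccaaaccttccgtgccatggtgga
Naip2: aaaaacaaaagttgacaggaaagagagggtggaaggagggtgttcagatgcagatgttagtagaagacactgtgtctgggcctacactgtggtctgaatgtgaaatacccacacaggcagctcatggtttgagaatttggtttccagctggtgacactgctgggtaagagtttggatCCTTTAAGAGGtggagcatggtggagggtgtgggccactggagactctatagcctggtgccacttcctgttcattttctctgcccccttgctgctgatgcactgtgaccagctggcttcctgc
Naip6: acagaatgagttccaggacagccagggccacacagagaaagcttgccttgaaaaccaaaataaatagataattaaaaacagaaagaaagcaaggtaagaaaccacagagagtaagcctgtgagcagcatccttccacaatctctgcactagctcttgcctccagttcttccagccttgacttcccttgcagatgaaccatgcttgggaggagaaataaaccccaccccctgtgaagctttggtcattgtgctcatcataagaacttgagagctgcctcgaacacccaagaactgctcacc
The gamma-activated sequence TTCNNNGAA, a motif of interferon-responsive promoters, was searched on both strands of the 9 promoters of these 8 genes. It is found in 8.30% of all promoters, and these letters did not occur in any of the 9 windows.

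The libraries held between 30646424 and 38870780 counts, and values are given as CPM, counts scaled to library size with edgeR's TMM factors, under which 3 counts equal 0.0801 to 0.0941 CPM. The targeted gene Ocln had 85.8, 78.7 and 91.7 CPM in the WT libraries and 15.1, 15.3 and 14.9 CPM in those of Ocln-KO, a log2 fold change of -2.50 (standard error 0.09, edgeR adjusted p = 0.000108). On the first principal component of log2 CPM, with 51.8% of the variance, the WT libraries lay between -42.7 and -27.5, and Ocln-KO replicate 3, at 62.4, lay apart from the other Ocln-KO libraries at 15.7 and 25.2. The labelled tissue was checked on its markers. Crisp1, an abundant product of principal cells, had 14878 ± 2186 CPM (SD, n = 3) in WT. Lcn5 and Adam7 had WT means of 4924 and 7451 CPM. The other principal cell markers were scarcer, with WT means of 10.7 CPM for Defb41 and 1.76 for Lcn8. Spag11b, Rnase10 and Cst11 had 0.318, 0.0667 and 0.00897 CPM. The segment marker Lcn9 had at most 4 counts in any library. Spag11b and Defb41 differed widely between Ocln-KO libraries, as given below. Whether all segments were represented alike in the libraries was not tested.

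Naip1, Naip3 and Naip6 had more counts in every Ocln-KO library than in any WT library. Naip1, the sensor nearest to Ocln (chromosome 13, 100407770 to 100452864), had 8.76, 9.93 and 11.0 CPM in the WT libraries and 67.6, 55.0 and 29.7 CPM in those of Ocln-KO. It showed the widest separation of the 10 genes, and its lowest Ocln-KO value, in replicate 3, was still above each WT value. Its means were 9.89 ± 1.11 and 50.8 ± 19.3 CPM (SD, n = 3 each), and its log2 fold change was 2.36 (standard error 0.28).

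Naip3, the pseudogene next to Naip1 (100340005 to 100389242), had 4.83, 6.59 and 3.61 CPM in the WT libraries and 25.4, 23.4 and 7.95 CPM in those of Ocln-KO. On the log2 scale the difference was 1.92 (standard error 0.43). Ocln-KO replicate 3 again had the lowest value of its genotype and lay close to the highest WT library. Naip6, one of the flagellin sensors (100281121 to 100316616), had 14.5, 17.7 and 12.2 CPM in the WT libraries and 39.2, 34.7 and 19.0 CPM in those of Ocln-KO. On the log2 scale the difference was 1.07 (standard error 0.27), and replicate 3 was the lowest Ocln-KO library here too.

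Naip5, the other flagellin sensor (100211735 to 100250930), had 2.32, 3.51 and 1.70 CPM in the WT libraries and 5.05, 5.27 and 2.42 CPM in those of Ocln-KO. Its genotypes overlapped, since Ocln-KO replicate 3 lay inside the WT range. The log2 fold change was 0.76 (standard error 0.39). Naip2, the sensor of the rod protein (100144063 to 100202122), went the other way and was scarce, with 0.427, 0.644 and 0.646 CPM in the WT libraries and 0.125, 0.596 and 0.414 CPM in those of Ocln-KO. These values rest on 4 to 24 counts per library and overlap, and the log2 fold change was -0.59 (standard error 0.60).

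Among the 5 Naip genes, the size of the difference followed the distance from Ocln. The gap to Ocln was 43640 bp for Naip1, 107262 bp for Naip3, 179888 bp for Naip6, 245574 bp for Naip5 and 294382 bp for Naip2, and the log2 fold changes fell along this series from 2.36 to -0.59. The pseudogene entry Naip3-ps1, at 213413 bp, stood outside this series at 0.07. So did 2 close neighbours of Ocln that are not Naip genes, Gtf2h2 at 3895 bp with 0.22 and Marveld2 at 43239 bp with 0.89. The rise chose the 5 Naip genes and the division of reads among them is uncertain, so the order is a description and was not tested. The genes lie on 1 chromosome segment with the targeted allele. Alleles linked to it and the absence of occludin cannot be told apart in this design.

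**Figure D1:**
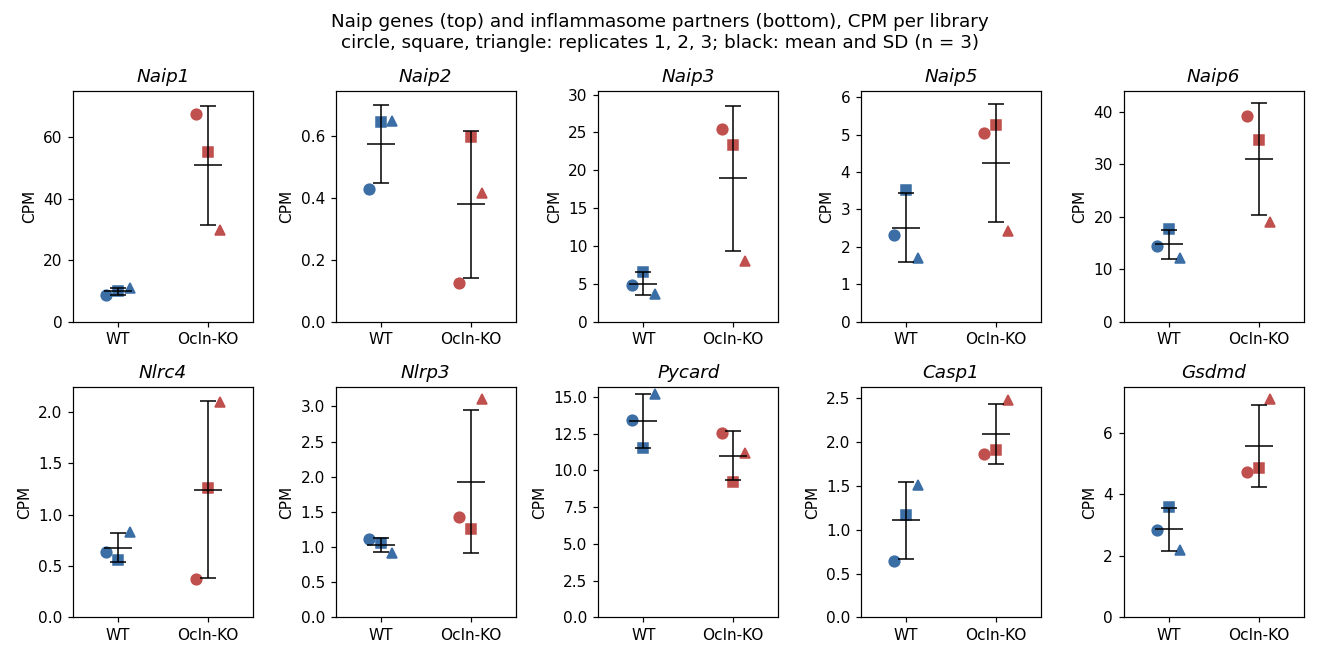
CPM of each of the 10 genes in the 6 libraries, on linear axes that start at 0 (blue WT, red Ocln-KO; circle, square and triangle for replicates 1, 2 and 3; black, mean and SD of 3 libraries). Naip1, Naip3 and Naip6 do not overlap between genotypes and are lowest among Ocln-KO libraries in replicate 3, while Nlrc4, Nlrp3, Casp1 and Gsdmd are highest in replicate 3.

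Of the 5 Naip genes, 3 did not overlap between genotypes and were higher in Ocln-KO, where 16.9% of all tested genes did so. Since the rise chose these genes, nothing is read from that count or from their median. Their median log2 fold change was 1.07.

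Because reads may be shared among copies, counts were also summed over the 6 tested Naip entries of the table, which add the pseudogene entry Naip3-ps1. The sum was 33.7, 40.2 and 30.2 CPM in the WT libraries and 140, 121 and 60.6 CPM in those of Ocln-KO. The Ocln-KO libraries were all above the WT libraries, with means of 107 ± 41.6 and 34.7 ± 5.07 CPM (SD, n = 3 each) and a ratio of 3.09. This sum does not depend on how reads were divided among the Naip entries, but reads left uncounted as ambiguous would be missing from it.

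In the counts as assigned, the share of Naip1 was higher in each Ocln-KO library than in any WT library. Naip1 held 26.0%, 24.7% and 36.3% of Naip counts in WT and 48.2%, 45.4% and 49.0% in Ocln-KO. Naip6 held 43.0%, 43.9% and 40.2% in WT and 28.0%, 28.6% and 31.4% in Ocln-KO. The ratio of Naip1 to Naip6 counts was 0.604, 0.562 and 0.903 in WT and 1.72, 1.59 and 1.56 in Ocln-KO. This ratio was similar in all 3 Ocln-KO libraries, although their summed Naip level ran from 60.6 to 140 CPM. Since the rise chose these genes and the division of reads among them is uncertain, nothing is read from these shares and ratios.

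**Figure D2:**
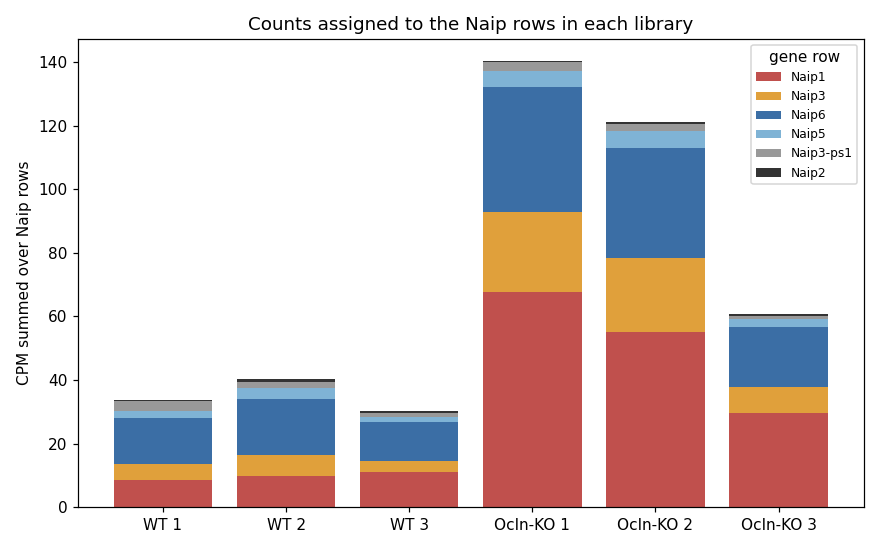
CPM summed over the Naip entries in each library, stacked by gene, on an axis that starts at 0. The 3 Ocln-KO libraries reach 140, 121 and 60.6 CPM against 30.2 to 40.2 in WT, with Naip1 as the largest block in Ocln-KO and Naip6 in WT.

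The pseudogene fragment Naip3-ps1 (100264609 to 100283091), which lies between Naip5 and Naip6 and overlaps the end of Naip6, had 2.88, 1.87 and 1.13 CPM in the WT libraries and 2.87, 2.23 and 1.09 CPM in those of Ocln-KO. Its log2 fold change was 0.07, and its genotypes overlapped.

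Among the 25 tested genes within 1 Mb of Ocln, 18 were neither Naip genes nor Ocln, and 1 of these was called higher and none lower at an adjusted p under 0.05. That is 5.56%, against 8.95% of all tested genes called in either direction. At an unadjusted p under 0.05 there were 4, where 29.1% of all tested genes were, and DESeq2 called 4 higher and 0 lower, against 8.15% and 8.67% of all tested genes. The called gene was Marveld2 (chromosome 13, 100595957 to 100616971), which encodes tricellulin, a protein of tight junctions where 3 cells meet. It had 33.4, 32.0 and 36.3 CPM in the WT libraries and 78.9, 60.5 and 49.1 CPM in those of Ocln-KO, and its log2 fold change was 0.89 (standard error 0.17, edgeR adjusted p = 0.0257). As with Naip1, Naip3 and Naip6, each Ocln-KO library lay above each WT library and replicate 3 was the lowest of them.

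Gtf2h2, a subunit gene of a general transcription factor that lies between Naip1 and Ocln, had 10.5, 11.8 and 12.3 CPM in the WT libraries and 14.3, 12.2 and 13.8 CPM in those of Ocln-KO. Its log2 fold change was 0.22 (adjusted p = 0.333), and the genotypes overlapped. On the Naip side beyond Naip2, Bdp1 had a log2 fold change of 0.41 (adjusted p = 0.0685), Serf1 0.34 (0.887), Mccc2 0.00 (0.995), Gm41039 0.86 (0.0733), Gm26559 0.63 (0.356) and Map1b 0.71 (0.0625). Bdp1 encodes a subunit of a transcription factor of RNA polymerase III, and Map1b a microtubule-associated protein. On the side of Marveld2, log2 fold changes were 0.16 for Rad17, 0.13 for Ak6, 0.02 for Taf9, 0.84 for Ccdc125, -0.03 for Cdk7, 0.15 for Mrps36, -0.04 for Cenph, 0.69 for Ccnb1, -0.04 for Slc30a5 and 0.39 for Gm10257, with adjusted p-values from 0.235 to 0.952. Of the 18 genes, 5 had libraries without overlap between genotypes, Marveld2, Map1b, Gm41039, Bdp1 and Rad17, each higher in Ocln-KO, as were 16.9% of all tested genes.

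Wider windows gave 7.14% of 28 tested genes called within 2 Mb and 12.5% of 72 within 5 Mb, leaving out Ocln and the Naip genes, beside 10.2% of 609 on the rest of chromosome 13 and 9.06% on the other chromosomes. Median log2 fold changes were 0.28, 0.14 and 0.11 in the 3 windows, 0.03 on the rest of the chromosome and 0.00 elsewhere.

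**Figure D3:**
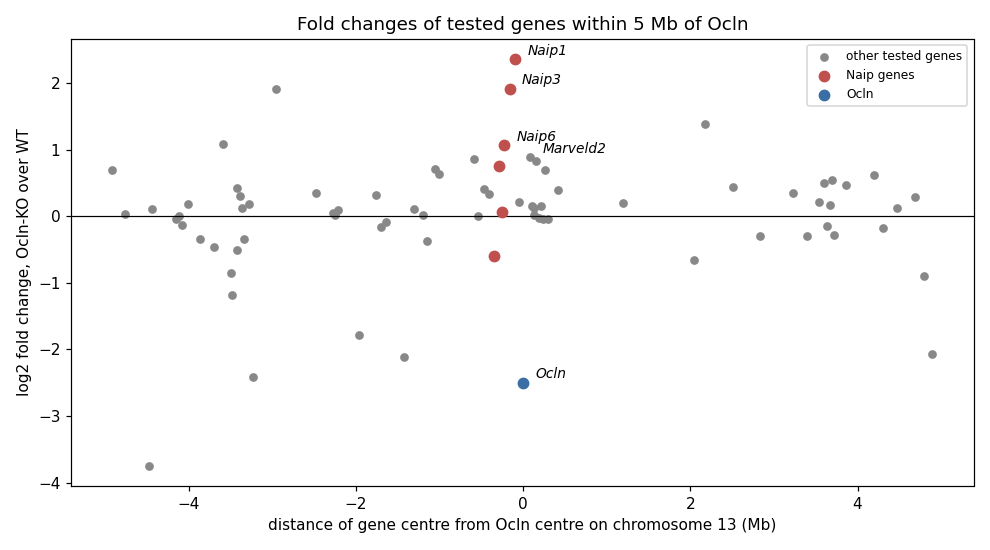
Log2 fold change, Ocln-KO over WT, of every tested gene within 5 Mb of Ocln against the distance of gene centres in Mb (red, the 6 tested Naip entries; blue, Ocln; grey, other genes). The Naip entries nearest to Ocln, Naip1 at 2.36 and Naip3 at 1.92, stand at the top of their 1 Mb surroundings, where other genes reach at most 0.89.

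None of the 5 partner genes passed the edgeR test. Of the 5, 4 had positive log2 fold changes, from 0.87 to 0.96, and 3 of these, Nlrp3, Casp1 and Gsdmd, were higher in every Ocln-KO library than in any WT library, where 16.9% of all tested genes were. At an adjusted p under 0.05, 0 of 5 were called by edgeR, against 3.91% of all tested genes called higher and 5.04% called lower. At an unadjusted p under 0.05 there were 2, Casp1 and Gsdmd, where 29.1% of all tested genes were in either direction. DESeq2 called 1, Gsdmd, and over all tested genes it called 8.15% higher.

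Nlrc4 (chromosome 17, 74426255 to 74459144), the adaptor that Naip proteins recruit, had 0.641, 0.556 and 0.834 CPM in the WT libraries and 0.374, 1.25 and 2.10 CPM in those of Ocln-KO. The lowest and the highest of the 6 libraries were both Ocln-KO. The log2 fold change was 0.87 (standard error 0.60, edgeR adjusted p = 0.377), and without replicate 3 it was 0.27. Nlrp3 (chromosome 11, 59541569 to 59566955) had 1.12, 1.05 and 0.915 CPM in the WT libraries and 1.43, 1.25 and 3.10 CPM in those of Ocln-KO, a log2 fold change of 0.91 (standard error 0.42, edgeR adjusted p = 0.199). Ocln-KO replicate 3 set most of this difference, and without it the log2 fold change was 0.38.

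Pycard (chromosome 7, 127991373 to 127993867), the gene of the adaptor ASC, had 13.4, 11.5 and 15.2 CPM in the WT libraries and 12.6, 9.22 and 11.2 CPM in those of Ocln-KO. It was the only partner with a lower mean in Ocln-KO, and the genotypes overlapped. Its log2 fold change was -0.28 (standard error 0.17, edgeR adjusted p = 0.312).

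Casp1 (chromosome 9, 5298517 to 5307281), the protease of the inflammasome, had 0.641, 1.17 and 1.51 CPM in the WT libraries and 1.87, 1.91 and 2.48 CPM in those of Ocln-KO. The genotypes did not overlap, and the log2 fold change was 0.92 (standard error 0.38, edgeR adjusted p = 0.159). Gsdmd (chromosome 15, 75862144 to 75867408), the gene of the pore-forming protein, had 2.83, 3.57 and 2.18 CPM in the WT libraries and 4.73, 4.86 and 7.10 CPM in those of Ocln-KO. It came nearest to the threshold among the partners, where the log2 fold change was 0.96 (standard error 0.28, edgeR adjusted p = 0.0683, and 0.0135 with DESeq2).

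Naip1, Naip3 and Naip6 ranked the Ocln-KO libraries differently from Nlrc4, Nlrp3, Casp1 and Gsdmd. Relative to the WT mean, Naip1 was at 6.83, 5.57 and 3.01, Naip3 at 5.07, 4.67 and 1.59, and Naip6 at 2.66, 2.35 and 1.29 in Ocln-KO replicates 1, 2 and 3. In the same libraries Nlrc4 was at 0.552, 1.85 and 3.10, Casp1 at 1.69, 1.73 and 2.25, and Gsdmd at 1.66, 1.70 and 2.48. Naip2, at 0.218, 1.04 and 0.723, was lowest in replicate 1, and Pycard, at 0.938, 0.689 and 0.838, was highest there. The library with the lowest summed Naip level of its genotype thus held the most transcripts of Nlrc4, Nlrp3, Casp1 and Gsdmd.

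The summed immune cell markers were also highest in that library, though not each marker. Fcgr1 and Cd3g were highest in Ocln-KO replicate 2 and Mertk in WT replicate 3. The neutrophil markers S100a9, Camp, Ngp and Mpo were also highest in WT replicate 3, with 6, 3, 12 and 2 counts. The summed level of 12 macrophage markers was 250 to 262 CPM in the WT libraries and 271, 327 and 497 CPM in those of Ocln-KO. Of the 11 tested, 10 had a positive log2 fold change, 0 were called by edgeR, 8 had an unadjusted p under 0.05 and DESeq2 called 5 higher, and Aif1 was at 0 in all libraries. Over all tested genes edgeR called 3.91% higher and 5.04% lower, and 29.1% had an unadjusted p under 0.05. DESeq2 called 8.15% of them higher and 8.67% lower. For 10 lymphocyte markers the sums were 2.83 to 3.61 CPM in WT and 5.36 to 10.3 CPM in Ocln-KO, with 0 of 5 tested called by edgeR or DESeq2, 3 at an unadjusted p under 0.05 and Cd2 at 0 throughout. For 10 neutrophil markers they were 1.10 to 2.11 CPM and 1.96 to 4.94 CPM, with Elane at 0 throughout and 0 of 1 tested, Csf3r, called by edgeR or DESeq2 (0 at an unadjusted p under 0.05). In Ocln-KO the neutrophil sum was mostly Csf3r, at 1.90, 2.48 and 4.49 CPM, while S100a9, Camp and Ngp had 0 counts there. In Ocln-KO replicates 1, 2 and 3 the macrophage sum was 1.06, 1.28 and 1.95 times the WT mean, the lymphocyte sum 1.72, 2.33 and 3.30 times, and the neutrophil sum 1.35, 1.73 and 3.40 times. The part of these markers in the partners' values was not tested, and in whole tissue more cells of a type and more RNA per cell cannot be told apart.

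Summed principal cell markers were lower in each Ocln-KO library than in any WT library, and summed markers of epithelium in general overlapped between genotypes. The summed level of the principal cell markers was 25330 to 29890 CPM in WT and 17503 to 24921 CPM in Ocln-KO. Of the 6 tested, 4 had a positive log2 fold change and 2 a negative one (median 0.04). By edgeR 1 was called higher, Spag11b, and 0 lower, with 3 at an unadjusted p under 0.05, and DESeq2 called 2 higher and 1 lower. The shares over all tested genes were 3.91% and 5.04% by edgeR, 29.1% unadjusted, and 8.15% and 8.67% by DESeq2. The sum of the principal cell markers was mostly Crisp1, Lcn5 and Adam7, and it covers opposite moves. Crisp1 was lower without overlap, at 7845 ± 2980 CPM (SD, n = 3) in Ocln-KO. Spag11b had 1.09, 144 and 215 CPM in Ocln-KO against at most 0.527 in WT, and Defb41 8.63, 114 and 156 against at most 14.8. The 10 markers of epithelium in general summed to 2057 to 2355 CPM in WT and 1743 to 2238 CPM in Ocln-KO, and of these 10, 3 had a positive log2 fold change and 7 a negative one (median -0.11). Called higher were 2, Krt19 and Cldn4, and 0 lower by edgeR, with 4 at an unadjusted p under 0.05, and DESeq2 called 2 higher and 1 lower. The shares over all tested genes are those given for the principal cell markers. Krt8 at -0.31 and Cldn3 at -0.38 were lower in each Ocln-KO library than in any WT library. Naip values relative to the WT mean were above these sums in each Ocln-KO library for Naip1, Naip3 and Naip6. Since the rise chose the Naip genes, nothing is read from that comparison.

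**Figure D4:**
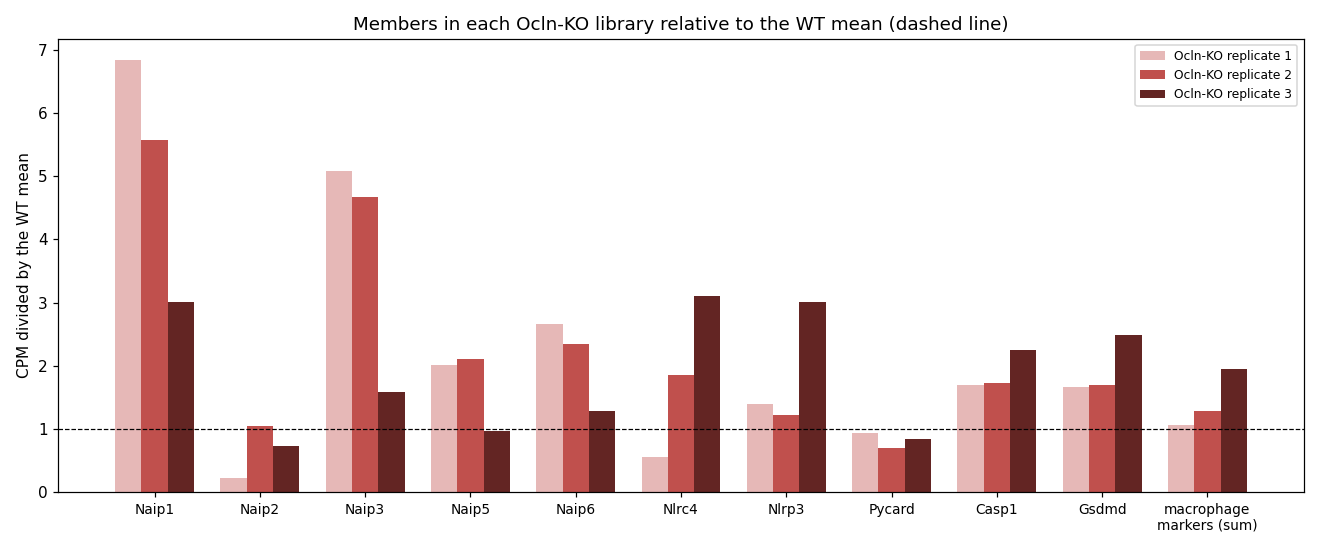
CPM of the 10 genes and of the summed macrophage markers in each Ocln-KO library divided by the WT mean (dashed line at 1; bars start at 0). Naip1 stands at 6.83 in replicate 1 and 3.01 in replicate 3, while Nlrc4 stands at 0.552 and 3.10 and the macrophage markers at 1.06 and 1.95 in the same libraries.

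Levels of different genes were compared only per length, as CPM per kilobase of merged exons. In WT the order was Pycard at 3.52 ± 0.482, Naip6 at 2.16 ± 0.404, Naip1 at 1.79 ± 0.200, Gsdmd at 1.20 ± 0.293 and Naip3 at 1.19 ± 0.356, then Casp1 at 0.739 ± 0.292, Naip5 at 0.483 ± 0.178, Nlrp3 at 0.254 ± 0.0260, Nlrc4 at 0.141 ± 0.0296 and Naip2 at 0.118 ± 0.0259 CPM per kilobase (SD, n = 3 each). Pycard lay above Naip6, Naip1 above Gsdmd, Naip5 above Nlrp3 and Nlrp3 above Nlrc4 without overlap of their libraries, and the other neighbours in this order overlapped. In Ocln-KO, Naip1 came first at 9.17 ± 3.48, followed by Naip6 at 4.54 ± 1.55 and Naip3 at 4.50 ± 2.27, and by Pycard at 2.89 ± 0.441 CPM per kilobase, each overlapping the next. Nlrc4, the gene through which Naip proteins signal, stayed near the end of the order in both genotypes, at 0.259 ± 0.180 CPM per kilobase in Ocln-KO. Per length, the mean level of each Naip gene but Naip2 was above that of Nlrc4 in both genotypes.

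Beyond the 10 genes, lists of 77 further genes of the pathway were followed, of which 73 were in the table and 51 were tested. These lists, too, were chosen with earlier results of these data known. In Ocln-KO 13 of the 51 rose (25.5%, against 3.91% of all tested genes) and 1 fell (1.96%, against 5.04%) at an edgeR adjusted p under 0.05. Of the rises, 8 were over 2-fold, as were 1.49% of all tested genes. The median log2 fold change of the 51 was 0.26, beside 0.01 over all tested genes. The count of rises rests on the full set of libraries. Without WT replicate 1 or WT replicate 3 it was 0, without WT replicate 2 it was 1, and without Ocln-KO replicate 2 it was 2, while 22 to 26 of the 51 genes, in either direction, had an unadjusted p under 0.05 in these fits, as did 21.3% to 24.9% of all tested genes. Over all genes the calls also dropped, from 770 higher to 4 without WT replicate 1. Without Ocln-KO replicate 3 there were 12 higher and 1 lower. The summed immune markers above were also over the WT mean in each Ocln-KO library, and their part in these rises was not tested.

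The largest log2 fold change among the 51 genes was that of Casp4. This gene, which encodes caspase-11, the sensor of cytosolic lipopolysaccharide that also cuts gasdermin D, had 0.534, 0.615 and 0.592 CPM in the WT libraries and 2.71, 4.14 and 3.13 CPM in those of Ocln-KO. Its libraries did not overlap, and it rose by 2.51 on the log2 scale (standard error 0.31, edgeR adjusted p = 0.0108). It passed the threshold under 11 of 14 alternatives, with adjusted p-values up to 0.0737. Casp12, a neighbour of Casp1 and Casp4 on chromosome 9, rose by 0.79 (adjusted p = 0.0343), and Casp8 stood at 0.01 (adjusted p = 0.948). The rise of Casp4 was the one with the smallest adjusted p among the 51 genes, and Ocln-KO replicate 3 was not its highest library.

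Of the other sensors, Aim2, which detects cytosolic DNA and acts through ASC, rose from 1.37 ± 0.457 to 3.84 ± 0.949 CPM (SD, n = 3 each), by 1.49 on the log2 scale (edgeR adjusted p = 0.0391). Aim2 was the 1 of 5 tested sensors that passed, where 3.91% of all tested genes were called higher. Nlrp1b, Nlrp1c-ps and Nlrp10 had log2 fold changes of 1.45, 1.48 and 1.53 with adjusted p-values of 0.0691, 0.106 and 0.168, and Mefv, the pyrin gene, had 0.47 (adjusted p = 0.724). Nlrp6 had 7 or fewer counts in each library and was not tested.

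The cytokine substrates of caspase-1 gave no call. Il18 had 1.29 ± 0.279 CPM in the WT libraries and 1.54 ± 0.0116 CPM in those of Ocln-KO (SD, n = 3 each; log2 fold change 0.26, edgeR adjusted p = 0.622), and Il1b had 2 to 16 counts per library and was not tested. Il1a stood at 0.66 (adjusted p = 0.681). On the receptor side, Il18r1, a chain of the IL-18 receptor, rose from 2.21 ± 0.471 to 5.49 ± 1.06 CPM (SD, n = 3 each; log2 fold change 1.31, edgeR adjusted p = 0.0290), the 1 of 8 tested genes of the IL-1 family that did. Il1r1 and Il1rap had values of 0.35 and 0.47 (adjusted p = 0.0691 and 0.0750). Of the other gasdermins and the membrane rupture gene Ninj1, 0 of 2 tested genes passed in edgeR, where Dfna5, the gene of gasdermin E, had -0.19 and Ninj1 -0.47 (adjusted p = 0.851 and 0.128). At an unadjusted p under 0.05 there was 1, Ninj1, and DESeq2 called 0. Over all tested genes edgeR called 3.91% higher and 5.04% lower, and 29.1% had an unadjusted p under 0.05. DESeq2 called 8.15% of them higher and 8.67% lower.

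Regulators of priming and assembly, the longest of the lists, held 7 of the 13 rises among 19 tested genes, with 1 fall. Over all tested genes 3.91% were called higher and 5.04% lower. P2rx7, the ATP-gated channel upstream of Nlrp3, rose from 7.70 ± 0.545 to 15.6 ± 3.29 CPM (SD, n = 3 each; log2 fold change 1.02, edgeR adjusted p = 0.0233). The 3 GTPase genes of the list also passed. Gbp2 had a log2 fold change of 1.24, Gbp5 of 0.97 and Irgm1 of 1.05 (edgeR adjusted p = 0.0316, 0.0438 and 0.0321), and none of the 3 passed when WT replicate 1, 2 or 3 was left out. Gbp2 stood at 21.6, 16.1 and 10.2 CPM in Ocln-KO and Irgm1 at 21.5, 24.0 and 13.7 CPM, so that both were lowest in replicate 3. The transcription factors Irf1 and Irf8 rose by 0.45 and 0.48 (adjusted p = 0.0401 and 0.0448), and Tlr5, the surface receptor for flagellin, by 0.68 (adjusted p = 0.0228). Tlr4 had 0.81 (adjusted p = 0.0535). Prkcd, a kinase known to phosphorylate Nlrc4, fell by 0.58 (adjusted p = 0.0235). Nek7, a partner of Nlrp3, stood at 0.04, Txnip at 0.17 and Myd88 at -0.05, none of them called.

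Of the other NLR genes, 2 of 9 tested rose, where 3.91% of all tested genes were called higher. Nlrc5, an activator of MHC class I genes, had 4.78, 4.54 and 6.65 CPM in the WT libraries and 25.0, 18.3 and 11.2 CPM in those of Ocln-KO, a log2 fold change of 1.77 (standard error 0.30, edgeR adjusted p = 0.0216). Its genotypes did not overlap, and its order among the Ocln-KO libraries was that of Naip1. Nlrc3 rose by 1.37 (adjusted p = 0.0423), and Ciita, the activator of MHC class II genes, had 1.56 (adjusted p = 0.0598) with its highest value, 21.2 CPM, in replicate 3. Nod1 stood at 0.12 (adjusted p = 0.572). The genes that share the BIR domain with Naip did not pass, 0 of 5 tested in edgeR and 2 at an unadjusted p under 0.05, with 1 called lower by DESeq2. They were Xiap at -0.42 and Birc3 at -0.38 (adjusted p = 0.0766 and 0.123). Over all tested genes edgeR called 5.04% lower, 29.1% had an unadjusted p under 0.05, and DESeq2 called 8.67% lower.

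**Figure D5:**
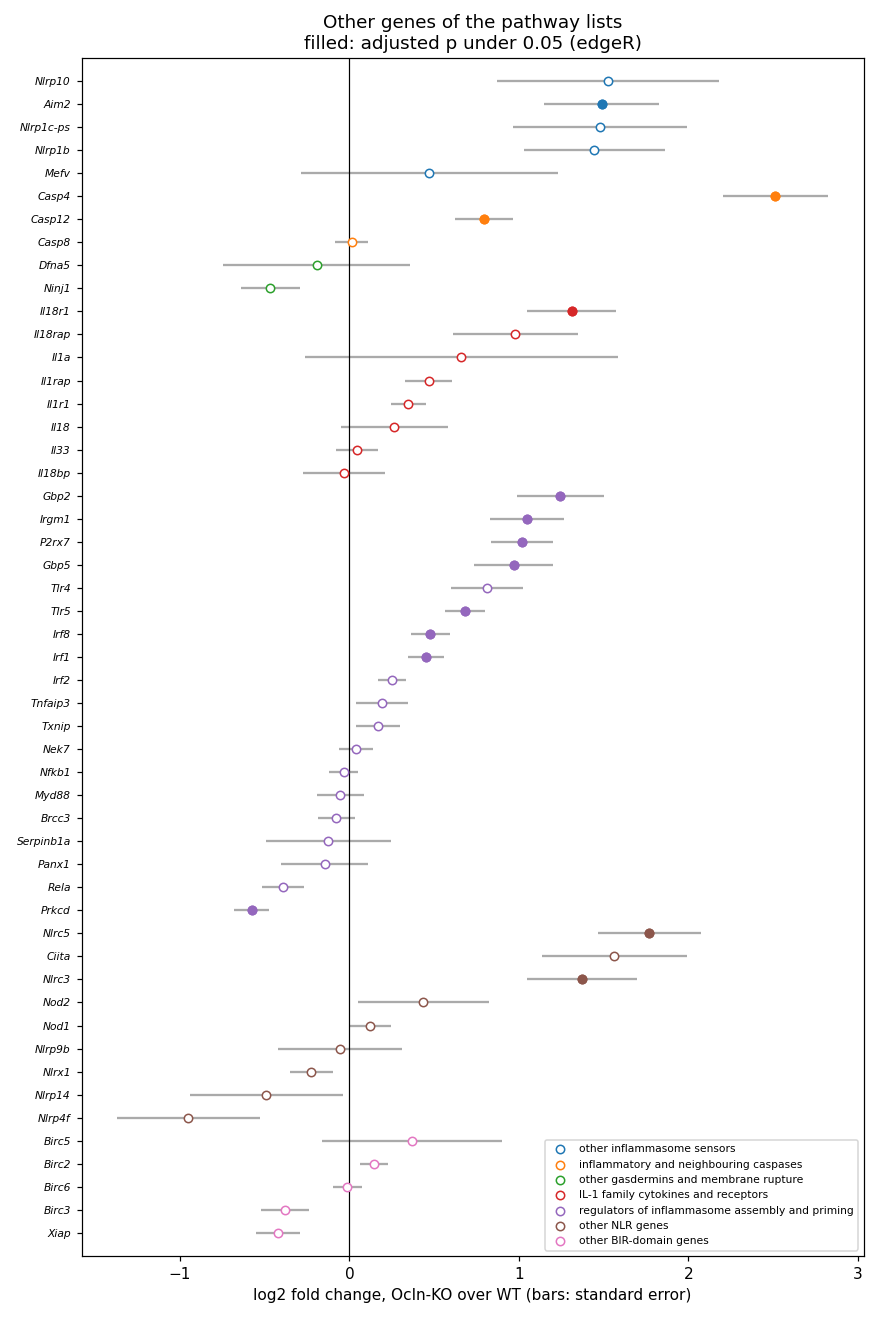
Log2 fold change, Ocln-KO over WT, of the 51 tested genes of the pathway lists, coloured by list, with standard errors as bars and filled circles at an edgeR adjusted p under 0.05. The 14 filled circles are 13 rises, led by Casp4 at 2.51, and the fall of Prkcd at -0.58.

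The genes most alike to the summed Naip level were sought among 16347 genes with a mean of at least 1 CPM, by Pearson's r of log2 CPM over the 6 libraries. They were Baz1a (r = 0.998), A630089N07Rik (0.997), Gm17971 (0.996), Gm37053 (0.994) and Phf3 (0.994), each without overlap between genotypes and higher in Ocln-KO. For Nlrc4 they were A330074K22Rik, Vwf, Gm16998, Zdhhc2 and Ftsj1 (r from 0.983 to 0.988), each with overlap. With 6 libraries and this many genes such values are a description, and the libraries share genotype and depth.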

How the data were processed

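Whole-epididymis RNA of 3 WT and 3 Ocln-KO libraries was, per the paper's methods, depleted of rRNA, made into directional libraries and sequenced as paired ends in 1 lane. The authors aligned reads to GRCm38 with HISAT2 (2.0.4 in the submitters' processing notes), counted them per gene with HTSeq and deposited raw counts without normalization. The counting mode, the strand setting and the treatment of reads with several alignments are not given in the sources used here. An extraction label names prefrontal cortex, while the tissue label and the paper give epididymis. Symbols were used as listed, and 28 of them had been turned into dates and 2 were repeated.

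The analysis used edgeR 4.0.16 under R 4.3.3 (filterByExpr, TMM factors, glmQLFit and glmQLFTest, Benjamini-Hochberg adjustment over all 19691 tested genes, common dispersion 0.0577), which gives each adjusted p unless another tool is named. DESeq2 1.42.0 and limma 3.58.1 (voom) were alternatives, besides other scalings, filters, a replicate block, each library left out in turn, and a 2-fold threshold. Standard errors are log2 fold changes divided by the square root of F. An exact two-sided permutation test of 3 against 3 libraries cannot go below p = 0.1, so none is given. Limits set by 3 counts cover counting error only. The fits were tried on simulated data with 200 genes changed 4-fold among 19318 tested. There edgeR recovered 80.5% of the changed genes and called 16 unchanged ones. With limma-voom these values were 77% and 15, and with DESeq2 89% and 62, so DESeq2 called the most unchanged genes. Transcript sequences came from GENCODE M21, coordinates and promoters from RefSeq GRCm38.p6, and identities from Biopython 1.88.

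The 10 genes, the gene lists and the tests were chosen with earlier results of these data known. Named genes are the 10, Ocln, the called genes and up to 4 others of each list, the tested genes within 1 Mb of Ocln, and the 5 genes most alike to the summed Naip level and to Nlrc4, on log2(CPM + 0.1). Untested genes named for their low counts, and Spag11b, Krt19, Cldn4 and the other marker genes, were named after their values were seen.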

Additional observations from a re-analysis of the deposited data

How the results depend on the processing

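Of the partners, edgeR called 0 higher and 0 lower, and DESeq2 called 1 higher. No other alternative called a partner. For the 13 rises and 1 fall in the pathway lists, the replicate block gave 0 and 0, the 2-fold threshold 8 and 0, and DESeq2 19 and 2. Leaving out 1 library at a time, they ran from 0 to 12 rises and from 0 to 2 falls, the fewest without WT replicate 1 or 3. These counts fell with those of all genes, to 4 higher and 19 lower without WT replicate 1. With the block 25 of the 51 genes had an unadjusted p under 0.05 (24.4% of all tested genes), against 27 without it (29.1%), and 10 genes were called higher and 31 lower over all genes. The paper's methods name 3 pairs of WT and Ocln-KO mice, and the sample titles give replicate numbers only. Deviations of same-numbered libraries correlated at -0.06, -0.02 and -0.04. So few values cannot show whether the replicate numbers pair the libraries, and the main test was unpaired. The cause of the lost calls was not tested.

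The median log2 fold change of the Naip genes kept its sign under each alternative. Over the alternatives Naip1 ran from 2.11 to 2.63, Naip3 from 1.65 to 2.29, Naip6 from 0.87 to 1.32, Naip5 from 0.54 to 1.08 and Naip2 from -1.07 to -0.17, the last being its values without Ocln-KO replicates 2 and 1. Scaled by total counts, the median of all genes was 0.09 in place of 0.01. Depth limits Naip2, Nlrc4, Nlrp3 and Casp1, which had few counts per library.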
